A study of Mus musculus with 10 samples.

Results

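Nitric oxide signals through a short chain of proteins, and the genes of that chain were read out in the lumbar spinal cord of mice given paclitaxel or vehicle. The 9 genes are the nitric oxide synthases Nos1 and Nos3, the soluble guanylyl cyclase subunits Gucy1a2, Gucy1a3 and Gucy1b3, the cGMP-dependent kinases Prkg1 and Prkg2, and the phosphodiesterases Pde5a and Pde9a. They were chosen by gene name, are 9 of the 24411 genes listed, and all 9 had enough counts to be among the 13287 genes tested. Each group had 5 libraries of bulk lumbar cord RNA, made after paclitaxel, a microtubule-stabilising cancer drug that causes a painful peripheral neuropathy, or after vehicle. The labels give no strain, sex, age, dose or time after dosing, nor whether each library came from its own animal. P-values therefore cover only the spread among these libraries, which may be technical.

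Synthases make nitric oxide from arginine with tetrahydrobiopterin as a cofactor. The gas diffuses into neighbouring cells and binds the haem of soluble guanylyl cyclase, a heterodimer of an alpha and a beta subunit, which then makes cyclic GMP. Cyclic GMP activates the kinases of the Prkg family and is broken down by phosphodiesterases. In the dorsal horn of the cord, Nos1 marks a set of interneurons, Nos3 is the endothelial enzyme of blood vessels, and the pathway is known for its part in the sensitisation of pain circuits.

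No gene of the pathway passed the threshold of an adjusted p of 0.05 (edgeR quasi-likelihood test with Benjamini-Hochberg adjustment, 0 of 9), against 0% of all 13287 tested genes. DESeq2 called 1 gene over the whole table, which was none of the 9. At an unadjusted p under 0.05 in edgeR there was 1 of 9, Prkg1, which was higher and was at or above 0.05 in 8 of 21 alternative settings, against 6.07% of all tested genes (2.94% higher and 3.12% lower). In 0 of 9 genes were the groups free of overlap, against 1.09% of all. By value, 3 genes were higher with paclitaxel (Gucy1a2, Prkg1 and Prkg2) and 6 lower, where 49.1% of all tested genes were higher and 50.9% lower. Their median log2 fold change was -0.027, against -0.0027 over all tested genes. The largest fitted difference was that of Nos3, at -0.70 on the log2 scale. It was -0.94 without paclitaxel replicate 2 and -0.30 without both paclitaxel replicate 3 and vehicle replicate 4.

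Total counts ran from 3676259 to 5432072 in paclitaxel libraries and from 4585899 to 7791594 in vehicle libraries. Levels are given as CPM, which are counts scaled to the effective depth of the library. Neuronal, astrocyte and oligodendrocyte markers were present in every library, with summed neuronal markers from 5317 to 5595 CPM with paclitaxel and from 5396 to 5503 CPM with vehicle. Of genes that tissue taken along in dissection would add, 5 markers of dorsal root ganglion neurons summed to at most 4.44 CPM with paclitaxel and 3.96 CPM with vehicle, with Mrgprd at 0, and 5 of skeletal muscle to at most 1.87 CPM with paclitaxel and 2.60 CPM with vehicle. Counts of all genes were compared between pairs of libraries by chi-square over its degrees of freedom. Paclitaxel replicate 3 stood apart from its group, at 5.08 to 6.88 in its pairs, against 1.62 to 3.06 in the other paclitaxel pairs. Vehicle replicate 4 did not, at 1.94 to 2.90 in its pairs, against 1.92 to 4.53 in the other vehicle pairs. It stood apart in the marker sum given below. In paclitaxel replicate 3 the 8 markers of pericytes and smooth muscle summed to 103.8 CPM, against 137.3 to 159.5 CPM in the other paclitaxel libraries and 134.7 to 150.3 CPM with vehicle. In vehicle replicate 4 the 7 markers of meninges and fibroblasts summed to 100.3 CPM, against 54.6 to 69.3 CPM with paclitaxel and 54.2 to 67.4 CPM in the other vehicle libraries.

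**Figure D1:**
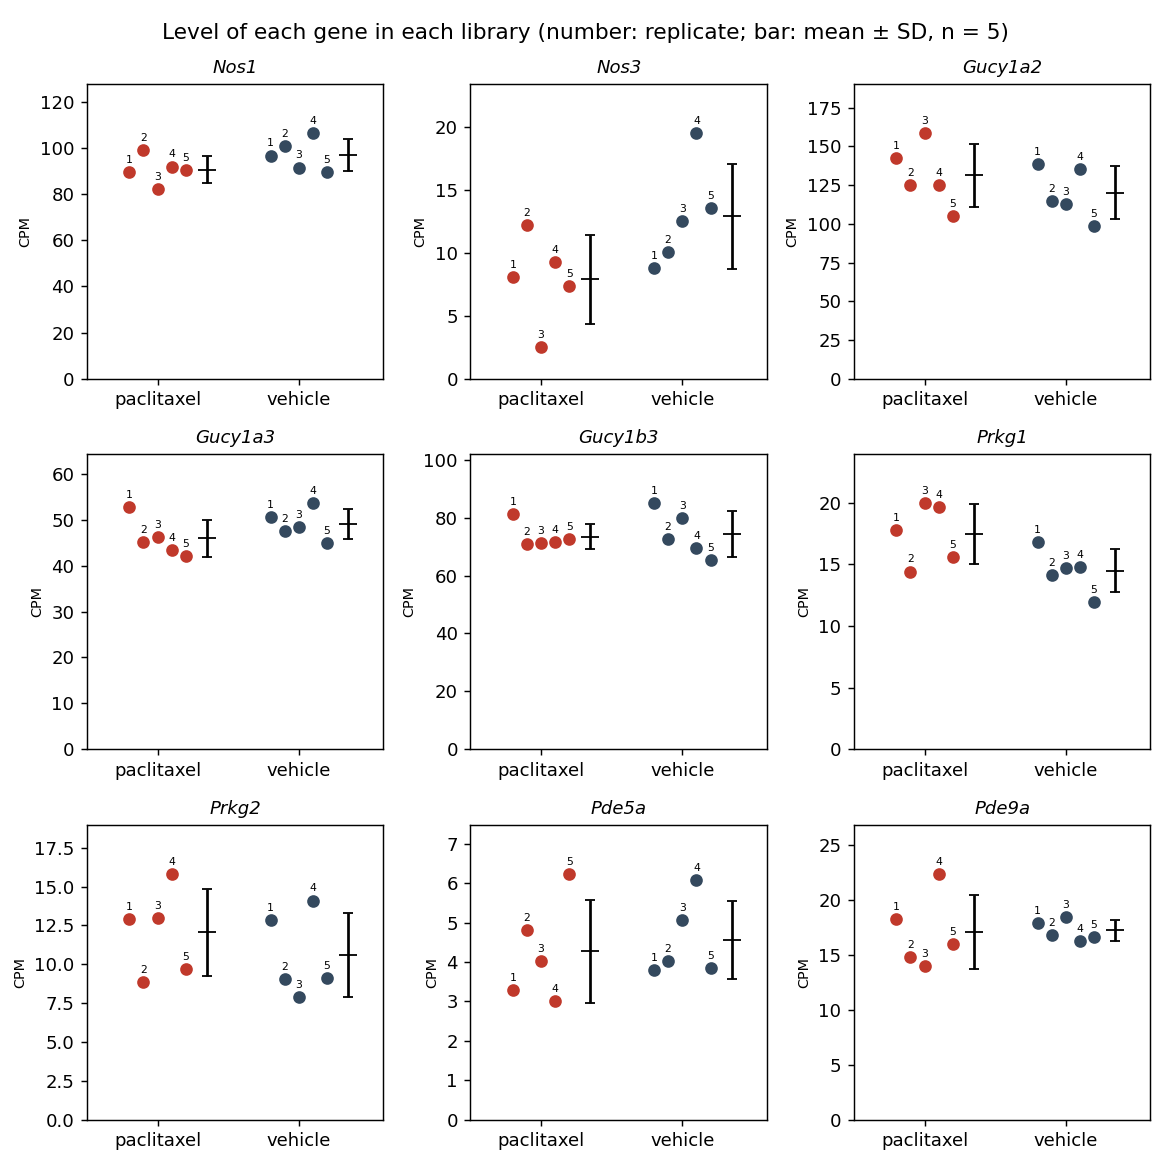
Level of each of the 9 genes in CPM (vertical axis, from 0) in each library of the paclitaxel and vehicle groups, with the replicate number at each point and the mean ± SD of 5 libraries beside it. In every panel the groups overlap. Relative to its mean, Nos3 spreads most in both groups, from 2.55 to 12.2 CPM with paclitaxel and from 8.79 to 19.5 CPM with vehicle.

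Nos1, the neuronal synthase, had 337 to 699 counts per library. Its gene lies on chromosome 5 from 117866839 to 117958840 (RefSeq, GRCm38, plus strand). Paclitaxel replicates 1 to 5 held 89.5, 99.1, 82.4, 91.95 and 90.3 CPM, against 96.7, 100.8, 91.5, 106.6 and 89.6 CPM in vehicle replicates 1 to 5. The values lay close together, and 4 of 5 paclitaxel libraries were below the vehicle mean. Means were 90.6 ± 5.97 CPM for paclitaxel and 97.0 ± 6.91 CPM for vehicle (n = 5 each, ± SD). The log2 fold change of -0.10 (SE 0.07) did not pass (edgeR unadjusted p = 0.165, adjusted p = 0.82), and the exact permutation test gave p = 0.175, two-sided. The 95% interval of the ratio, from 0.851 to 1.03, bounds the difference at this depth. The log2 fold change was -0.060 without paclitaxel replicate 3, -0.058 without vehicle replicate 4 and -0.028 without both. These were the lowest and the highest of all 10 libraries in CPM, so leaving out either had to bring the means closer. It was -0.13 without paclitaxel replicate 2 and -0.12 without vehicle replicate 5. Set beside it were 6 genes of dorsal horn interneurons: Nos1 itself and the neuropeptide or receptor genes Gal, Pdyn, Npy1r, Sst and Penk. They summed to 357.9 to 394.0 CPM with paclitaxel and 365.2 to 406.5 CPM with vehicle. Most of the sum came from Penk, Nos1 and Sst (means of 163.9, 90.6 and 78.5 CPM with paclitaxel). It is therefore no measure of the cells that contain Nos1. None of the 6 passed at an unadjusted p under 0.05 in edgeR.

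Nos3, the endothelial synthase, was the gene of the pathway with the widest spread. It lies on chromosome 5 from 24364816 to 24384474 (plus strand). Paclitaxel replicates 1 to 5 held 8.08, 12.2, 2.55, 9.28 and 7.34 CPM, against 8.79, 10.1, 12.5, 19.5 and 13.6 CPM in vehicle replicates 1 to 5. Every paclitaxel library was below the vehicle mean, and 3 of 5 were below the lowest vehicle library. In CPM, paclitaxel replicate 3 was the lowest of all 10 and vehicle replicate 4 the highest, so leaving out either had to bring the means closer. Means were 7.89 ± 3.51 CPM for paclitaxel and 12.9 ± 4.16 CPM for vehicle (n = 5 each, ± SD). The log2 fold change was -0.70 (SE 0.33, 95% interval -1.44 to 0.04), and it did not pass (edgeR unadjusted p = 0.0618, adjusted p = 0.80). The exact permutation test gave p = 0.0635, two-sided, where 0.00794 is the smallest value that 5 against 5 libraries allow. Without paclitaxel replicate 3 the log2 fold change was -0.47 (edgeR unadjusted p = 0.043), without vehicle replicate 4 it was -0.52 (0.115), without both it was -0.30 (0.102), and without paclitaxel replicate 2 it was -0.94 (0.0163). The unadjusted p was under 0.05 in 5 of 21 alternative settings, and the adjusted p was at least 0.484 in every one of the 21.

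Nos3 was set beside the other endothelial genes of the same libraries, because in bulk tissue fewer endothelial cells and less Nos3 RNA per cell cannot be told apart. The 7 endothelial markers (Cldn5, Pecam1, Flt1, Ly6c1, Tek, Esam and Slco1a4) summed to 236.9, 252.3, 168.5, 207.4 and 207.5 CPM in paclitaxel replicates 1 to 5, against 239.2, 228.0, 205.9, 210.7 and 179.7 CPM in vehicle replicates 1 to 5. The summed levels overlapped, with paclitaxel replicate 3 lowest. By gene, 2 of 7 were higher and 5 lower with paclitaxel, and 0 passed in edgeR over all genes. At an unadjusted p under 0.05 there were 2 of 7, against 6.07% of all tested genes. They went in opposite directions: the transporter Slco1a4 (log2 fold change 0.32) and the junction protein Esam (-0.28). Nos3 came to 3.41%, 4.84%, 1.51%, 4.47% and 3.54% of the summed markers in paclitaxel replicates 1 to 5, against 3.67%, 4.43%, 6.09%, 9.27% and 7.56% in vehicle replicates 1 to 5. These shares were chosen after the values were seen and are given without a test. They averaged 3.55% ± 1.29 with paclitaxel and 6.20% ± 2.28 with vehicle (SD, n = 5 each), and they overlapped. Slco1a4 was the largest marker of the sum with paclitaxel, at a mean of 62.0 CPM, against 50.0 CPM with vehicle. The shares therefore depend on a marker that was itself higher with paclitaxel, which lowers the share there. Without paclitaxel replicate 3 the mean share was 4.06% ± 0.70 with paclitaxel, and without vehicle replicate 4 it was 5.44% ± 1.74 with vehicle (SD, n = 4 each). Paclitaxel replicate 3 was also the lowest of all 10 libraries in summed markers of pericytes and smooth muscle (103.8 CPM) and blood (60.7 CPM). So it was for oligodendrocytes (20779 CPM), their precursors (504.8 CPM), astrocytes (3852 CPM), ependyma (31.0 CPM) and the 6 interneuron genes (357.9 CPM). It was not the lowest for neurons, microglia, or meninges and fibroblasts. Such sums follow the most abundant markers. With markers weighted alike, as the mean log2 difference from vehicle, its astrocyte value (0.045) was above every vehicle library (at most 0.036). For blood (-0.47) vehicle replicate 1 was lower (-0.92), and for meninges and fibroblasts (-0.61) paclitaxel replicate 3 became the lowest. The other sets named here kept their place. The part of these sums in its Nos3 value was not tested.

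**Figure D2:**
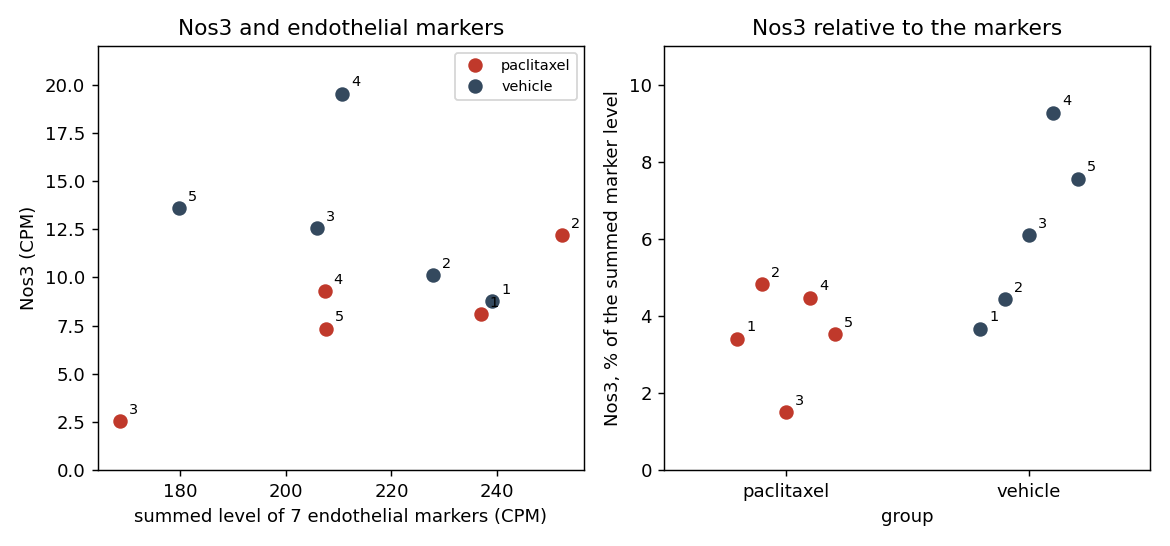
Left, Nos3 in CPM against the summed CPM of 7 endothelial markers, 1 point per library with its replicate number. Right, Nos3 as a percentage of that sum, paclitaxel beside vehicle. Paclitaxel replicate 3 is lowest on both axes of the left panel, at 168.5 and 2.55 CPM, while vehicle replicate 4 holds 19.5 CPM of Nos3 at a marker sum of 210.7 CPM.

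The Nos3 locus also sets a limit on its counts. The last part of Nos3 overlaps the autophagy gene Atg9b on the opposite strand, with 294 bases of exon in common, and the strand setting of the counting is not given in the sources used here. Without strand, reads from the shared bases cannot be told apart. GENCODE also lists antisense transcripts over exons of Nos3 (1040 bases), Nos1 (268 bases), Pde9a (138 and 157 bases) and Pde5a (55 bases). Reads from them, if counted without strand, could have been added to these genes. The transcript over Pde5a held 0 expected counts in every library. The others are not listed under those names among the counted genes, so no division of reads with them could be seen. Expected counts of Nos3 and Atg9b were fractional in the same libraries. They were 34.48 and 35.52 in paclitaxel replicate 1 and 48.61 and 48.39 in vehicle replicate 1. In vehicle replicate 2 they were 57.81 and 53.19. In each the fractions of the pair made up a whole count, so these reads were divided between genes on opposite strands. Atg9b itself ran from 8.28 to 11.5 CPM with paclitaxel and from 7.16 to 10.8 CPM with vehicle. Its lowest value was in vehicle replicate 4, where Nos3 was highest and both counts were whole (33 for Atg9b and 90 for Nos3). Nos2, the inducible synthase of inflammation, reached 32 counts over all 10 libraries, at most 5 in any, and was below the filter.

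None of the 3 soluble guanylyl cyclase genes passed, and their fitted ratios lay between 0.939 and 1.09. Gucy1b3 encodes the beta subunit, which carries the haem and is needed in both forms of the enzyme. Gucy1a3 (now Gucy1a1) encodes the alpha-1 subunit, and Gucy1a2 the alpha-2 subunit, which can anchor the enzyme at synapses through a PDZ-binding tail. Gucy1b3 and Gucy1a3 are neighbours on chromosome 3, from 82032004 to 82074711 and from 82092427 to 82145946, both on the minus strand and 17716 bases apart. Gucy1a2 lies on chromosome 9 from 3532349 to 3905791 (plus strand).

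The 250 bases before each transcript start that the RefSeq promoter table (GRCm38.p6) gives for the cyclase genes are printed below, 5′ to 3′, because the subunits must be made together and their levels are compared next. Of the 9 genes, 6 had an entry in that table. Capitals mark, on either strand, the GC box GGGCGG, the CCAAT box CCAAT, the E-box CACGTG and the cAMP response element core TGACG.
Gucy1b3, chr3:82074712-82074961, minus strand: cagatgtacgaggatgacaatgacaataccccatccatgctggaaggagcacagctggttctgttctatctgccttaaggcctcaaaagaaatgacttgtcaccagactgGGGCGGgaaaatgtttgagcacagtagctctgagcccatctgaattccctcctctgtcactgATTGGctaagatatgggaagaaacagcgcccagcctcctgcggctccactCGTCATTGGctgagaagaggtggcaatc
Gucy1a3, chr3:82145651-82145900, minus strand: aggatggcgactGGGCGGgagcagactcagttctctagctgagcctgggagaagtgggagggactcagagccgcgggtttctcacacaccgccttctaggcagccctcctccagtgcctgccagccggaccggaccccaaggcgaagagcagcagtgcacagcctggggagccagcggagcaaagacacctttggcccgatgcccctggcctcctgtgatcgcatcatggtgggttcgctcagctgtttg
Gucy1a3, chr3:82145074-82145323, minus strand: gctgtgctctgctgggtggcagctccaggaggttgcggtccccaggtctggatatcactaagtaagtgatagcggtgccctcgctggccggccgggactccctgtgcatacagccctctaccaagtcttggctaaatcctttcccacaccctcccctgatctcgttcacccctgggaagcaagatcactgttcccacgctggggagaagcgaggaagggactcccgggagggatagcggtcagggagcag
Gucy1a2, chr9:3532099-3532348, plus strand: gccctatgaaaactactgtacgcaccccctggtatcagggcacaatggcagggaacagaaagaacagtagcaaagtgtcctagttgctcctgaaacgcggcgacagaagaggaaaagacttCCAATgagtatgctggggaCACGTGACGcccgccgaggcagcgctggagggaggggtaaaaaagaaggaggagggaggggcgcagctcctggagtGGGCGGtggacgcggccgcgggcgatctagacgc
Gucy1a3 has 2 such starts, both inside the span of the gene given above. A GC box, found in 32.7% of the 32851 promoter windows of this length, is in 3 of the 4 windows. The inner Gucy1a3 window, the second of its pair, holds none of the 4 motifs. Gucy1b3 has 2 CCAAT boxes and Gucy1a2 has 1, against 33.8% of windows with any. Gucy1b3 and Gucy1a2 also hold the TGACG core (17.8% of windows), which overlaps a CCAAT box in Gucy1b3 and the E-box in Gucy1a2 (6.02% of windows). These matches describe the letters only.

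Gucy1b3 held 81.3, 70.8, 71.3, 71.5 and 72.5 CPM in paclitaxel replicates 1 to 5, against 85.0, 72.7, 79.9, 69.4 and 65.2 CPM in vehicle replicates 1 to 5. The paclitaxel values lay within the vehicle range. Its mean was 73.5 ± 4.43 CPM for paclitaxel and 74.4 ± 7.95 CPM for vehicle (n = 5 each, ± SD), a log2 fold change of -0.016 (SE 0.07; edgeR adjusted p = 0.986). The 95% interval of the ratio, from 0.888 to 1.10, covers no change.

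Gucy1a3 held 52.7, 45.1, 46.3, 43.4 and 42.2 CPM in paclitaxel replicates 1 to 5, against 50.6, 47.5, 48.4, 53.6 and 44.99 CPM in vehicle replicates 1 to 5. Paclitaxel replicate 1 was high and the other 4 paclitaxel libraries were below the vehicle mean. Means were 45.9 ± 4.11 CPM for paclitaxel and 49.0 ± 3.26 CPM for vehicle (n = 5 each, ± SD), a log2 fold change of -0.09 (SE 0.08; edgeR adjusted p = 0.848). It was -0.14 without paclitaxel replicate 1, -0.060 without paclitaxel replicate 5, -0.055 without vehicle replicate 4 and -0.14 under a correction for GC content and length, with the unadjusted p at 0.0581 or above in all 21 alternative settings.

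Gucy1a2 held 142.3, 125.1, 158.8, 125.2 and 105.1 CPM in paclitaxel replicates 1 to 5, against 138.8, 114.9, 113.1, 135.6 and 98.3 CPM in vehicle replicates 1 to 5. By value 4 of 5 paclitaxel libraries were above the vehicle mean, and paclitaxel replicate 3 was highest. Means were 131.3 ± 20.2 CPM for paclitaxel and 120.2 ± 16.9 CPM for vehicle (n = 5 each, ± SD), a log2 fold change of 0.13 (SE 0.12; edgeR adjusted p = 0.856). Without paclitaxel replicate 3 it was 0.05, and without vehicle replicate 5 it was 0.06. Without paclitaxel replicate 5 it was 0.20, without vehicle replicate 1 it was 0.19 and without vehicle replicate 4 it was 0.18.

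The balance of the alpha subunits was read as the log2 ratio of Gucy1a2 to Gucy1a3 within each library. It was 1.43, 1.46, 1.77, 1.52 and 1.31 in paclitaxel replicates 1 to 5, against 1.45, 1.27, 1.22, 1.33 and 1.12 in vehicle replicates 1 to 5. The groups overlapped, with 3 paclitaxel libraries above the highest vehicle library. The mean log2 ratio was 1.498 ± 0.17 with paclitaxel and 1.28 ± 0.12 with vehicle (SD, n = 5 each), a difference of 0.22. Its exact permutation p was 0.0476, two-sided, and 0.19 after adjustment over the 6 ratios computed, so it did not pass. As a difference of fitted log2 fold changes it was 0.15 without paclitaxel replicate 3 and 0.16 without both that library and vehicle replicate 4. Without vehicle replicate 1 it was 0.27. The ratios were not among the tests planned. The ratio of Gucy1a3 to Gucy1b3 had a log2 mean of -0.68 ± 0.07 with paclitaxel and -0.59 ± 0.15 with vehicle (SD, n = 5 each; exact permutation p = 0.325, adjusted p = 0.488), and that of Gucy1a2 to Gucy1b3 0.82 ± 0.22 with paclitaxel and 0.68 ± 0.17 with vehicle (exact permutation p = 0.31, adjusted p = 0.488).

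Kinase genes were both higher in value with paclitaxel. Prkg1 encodes the kinase of smooth muscle and of many neurons, including those of the dorsal horn, and Prkg2 a membrane-bound relative. Prkg1 lies on chromosome 19 from 30564487 to 31765268 and Prkg2 on chromosome 5 from 98929773 to 99037375, both on the minus strand. Prkg1 is transcribed from separate starts 100663 bases apart, whose transcripts the gene-level counts add together, so the sequences before both are shown with the same capitals.
Prkg1, chr19:31765034-31765283, minus strand: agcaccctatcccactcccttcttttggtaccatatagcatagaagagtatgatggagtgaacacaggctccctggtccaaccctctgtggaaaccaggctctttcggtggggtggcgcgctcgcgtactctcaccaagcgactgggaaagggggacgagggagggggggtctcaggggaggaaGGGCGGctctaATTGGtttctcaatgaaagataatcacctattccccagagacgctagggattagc
Prkg1, chr19:31664371-31664620, minus strand: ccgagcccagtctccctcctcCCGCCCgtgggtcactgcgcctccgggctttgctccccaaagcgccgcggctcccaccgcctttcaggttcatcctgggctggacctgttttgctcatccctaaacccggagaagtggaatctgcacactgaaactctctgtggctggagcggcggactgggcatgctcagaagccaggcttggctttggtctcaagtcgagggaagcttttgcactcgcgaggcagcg
Each window holds 1 GC box, and the outer one also holds a CCAAT box. GC content was 55.2% in the outer window and 62.8% in the inner one. Which start gave the counts below was not resolved.

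Prkg1 held 17.8, 14.4, 19.95, 19.6 and 15.6 CPM in paclitaxel replicates 1 to 5, against 16.8, 14.1, 14.7, 14.8 and 11.9 CPM in vehicle replicates 1 to 5. By value 4 of 5 paclitaxel libraries were above the vehicle mean, 3 of them above the highest vehicle library, and paclitaxel replicate 2 lay among the vehicle values. Means were 17.5 ± 2.44 CPM for paclitaxel and 14.5 ± 1.75 CPM for vehicle (n = 5 each, ± SD). The log2 fold change was 0.27 (SE 0.12, 95% interval 0.02 to 0.53), a 1.21-fold ratio. It did not pass over all genes (edgeR unadjusted p = 0.0381, adjusted p = 0.792), where it ranked 627 by p, and the exact permutation test gave p = 0.0635, two-sided. Counts per library were between 67 and 94. With each library left out in turn the log2 fold change ran from 0.20 to 0.34, lowest without vehicle replicate 5.

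Prkg2 held 12.9, 8.87, 12.95, 15.8 and 9.73 CPM in paclitaxel replicates 1 to 5, against 12.8, 9.08, 7.92, 14.1 and 9.10 CPM in vehicle replicates 1 to 5. Each group split into higher and lower libraries, and the ranges overlapped almost throughout. Means were 12.1 ± 2.80 CPM for paclitaxel and 10.6 ± 2.69 CPM for vehicle (n = 5 each, ± SD), a log2 fold change of 0.17 (SE 0.18; edgeR adjusted p = 0.876). It was 0.07 without paclitaxel replicate 4, 0.10 without vehicle replicate 3 and 0.11 without vehicle replicate 5, against 0.27 without paclitaxel replicate 2, 0.28 without vehicle replicate 4 and 0.26 without vehicle replicate 1. The log2 ratio of Prkg2 to Prkg1 averaged -0.54 ± 0.16 with paclitaxel and -0.46 ± 0.30 with vehicle (SD, n = 5 each; exact permutation p = 0.595, adjusted p = 0.714).

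Phosphodiesterase genes had fitted differences near 0. Pde5a, the target of sildenafil, hydrolyses cyclic GMP in smooth muscle and some neurons, and Pde9a has the highest affinity for cyclic GMP of the family. Pde5a lies on chromosome 3 from 122729158 to 122859374 and Pde9a on chromosome 17 from 31386105 to 31476309, both on the plus strand. Pde5a had 11 to 34 counts per library. It held 3.28, 4.81, 4.03, 3.00 and 6.24 CPM in paclitaxel replicates 1 to 5, against 3.80, 4.02, 5.06, 6.08 and 3.84 CPM in vehicle replicates 1 to 5. Its log2 fold change of -0.029 (SE 0.22; edgeR adjusted p = 0.991) had a 95% interval from -0.49 to 0.43, so that ratios between 0.712 and 1.35 could not be told from no change at this depth. The sign turned when any of 5 single libraries was left out.

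Pde9a held 18.3, 14.8, 14.0, 22.4 and 16.0 CPM in paclitaxel replicates 1 to 5, against 17.9, 16.8, 18.5, 16.3 and 16.7 CPM in vehicle replicates 1 to 5. The paclitaxel values reached both above and below all vehicle values. Means were 17.1 ± 3.37 CPM for paclitaxel and 17.2 ± 0.93 CPM for vehicle (n = 5 each, ± SD), and the log2 fold change was -0.027 (SE 0.12; edgeR adjusted p = 0.984). The coefficient of variation over libraries was 19.7% with paclitaxel and 5.39% with vehicle, given as a description with no test. Paclitaxel replicates 2 and 3 were lowest and replicate 4 highest.

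**Figure D3:**
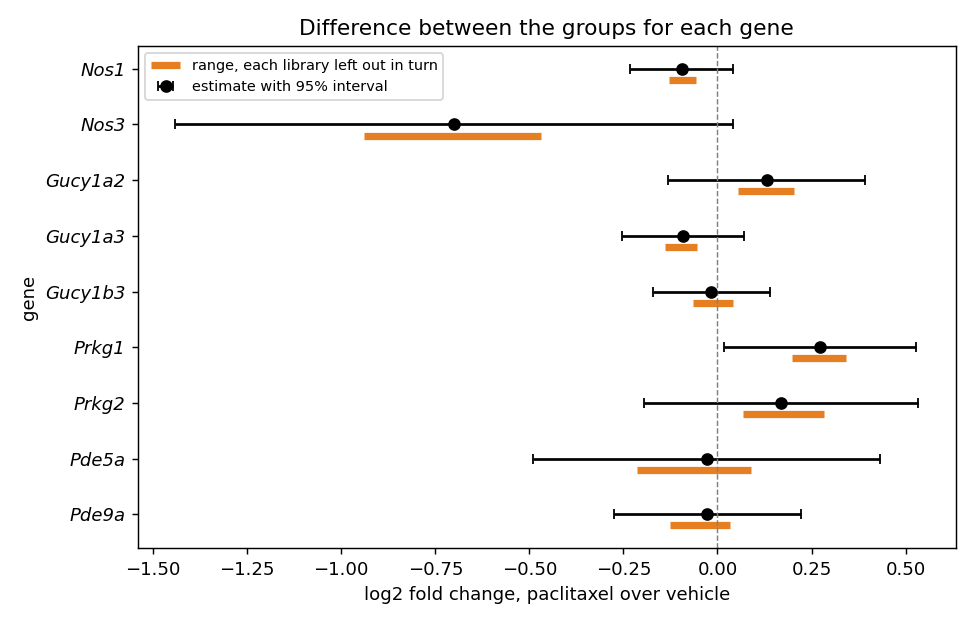
Log2 fold change of paclitaxel over vehicle for each gene (horizontal axis), with its 95% interval in black and, in orange, the range when each of the 10 libraries is left out in turn. The intervals of 8 genes include 0, and that of Prkg1 runs from 0.02 to 0.53 before adjustment over all genes. Nos3 has the widest interval, from -1.44 to 0.04.

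Levels of different genes can be set against each other only per transcript length, taken here as CPM per kb of the transcripts listed for the gene. On that scale the mean over all 10 libraries was 23.1 ± 1.90 for Gucy1b3, 10.4 ± 0.85 for Gucy1a3, 9.27 ± 0.69 for Nos1, 8.21 ± 1.12 for Pde9a, 3.26 ± 0.52 for Prkg1, 2.52 ± 1.09 for Nos3, 2.28 ± 0.54 for Prkg2 and 0.636 ± 0.16 for Pde5a (SD, n = 10). Gucy1b3 stood above all of these without overlap between libraries. Gucy1a3, Nos1 and Pde9a overlapped their neighbours in that order, as did Prkg1, Nos3 and Prkg2, while Pde9a and Prkg1 did not overlap. Pde5a lay below Prkg2 in every library, although 1 library of Nos3 came down to 0.616. With the longest listed transcript Prkg1 came to 2.29, at the level of Prkg2.

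The place of Gucy1a2 in this order could not be fixed. Its GENCODE transcript is 2.24 kb long and gives 56.1 ± 8.26 CPM per kb (SD, n = 10), the highest of the 9. The RefSeq gene, whose transcripts the deposited table names, reaches 11.5 kb further, and with that length added the level was 9.16, next to Nos1. The comparison between groups does not use length and is the same in either case.

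**Figure D4:**
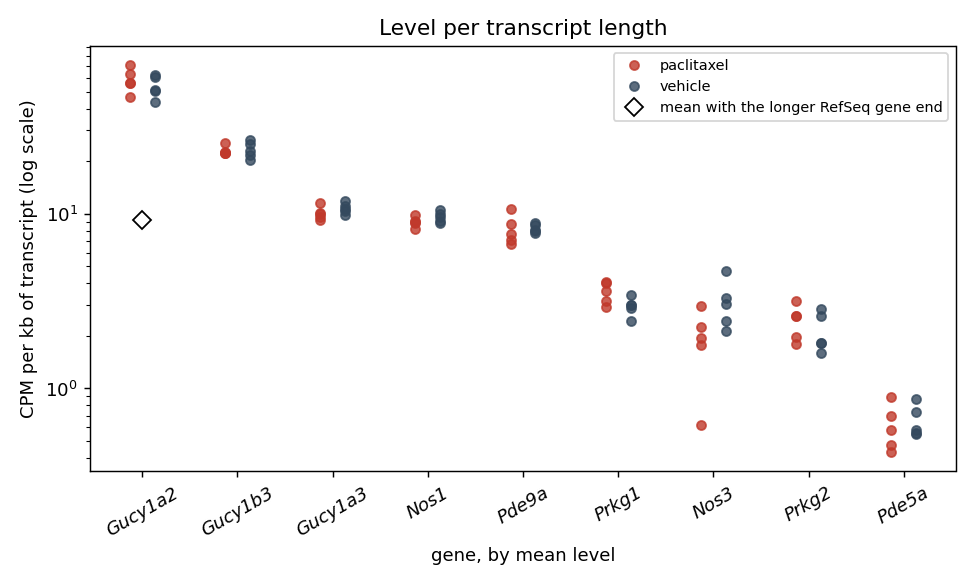
CPM per kb of transcript on a log axis, 1 point per library, paclitaxel left of vehicle, with the genes ordered by their mean. Gucy1b3 lies at 23.1 on average and Pde5a at 0.636, and the open diamond marks Gucy1a2 at 9.16 when the longer RefSeq gene end is used.

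How the 9 genes varied together was read from the correlation of log2 CPM over the 10 libraries after the mean of each group was removed. Of 36 pairs, 22 correlations were positive and 14 negative, with a median r of 0.13, and 0 passed after adjustment over the 36 pairs (exact permutation within groups, 4 at an unadjusted p under 0.05). The highest was that of both alpha subunits, Gucy1a2 with Gucy1a3 (r = 0.76, permutation p = 0.0226, adjusted p = 0.397). Its rho was 0.76 (permutation p = 0.0238, adjusted p = 0.402). Without the 2 libraries farthest from the median of the gene named first, r was 0.90. When levels were first corrected for the GC content and length of transcripts, a setting chosen with the values known, it was 0.52. Gucy1a2 with Prkg1 had r = 0.74 (permutation p = 0.0235, adjusted p = 0.397; rho = 0.81, permutation p = 0.0084, adjusted p = 0.302), 0.57 without the 2 farthest libraries and 0.57 after the correction. Prkg1 with Prkg2 had r = 0.72 (permutation p = 0.0331, adjusted p = 0.397; rho = 0.68, permutation p = 0.0472, adjusted p = 0.402), and 0.65 and 0.67 in those settings.

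The subunits of the alpha-1 enzyme, Gucy1a3 and Gucy1b3, had r = 0.50 (permutation p = 0.13, adjusted p = 0.666; rho = 0.37, permutation p = 0.332, adjusted p = 0.797), 0.71 without the 2 farthest libraries and 0.44 after the correction. Both synthases, Nos1 with Nos3, had r = 0.68 (permutation p = 0.0442, adjusted p = 0.398) and rho = 0.58 (permutation p = 0.0955, adjusted p = 0.43). Their r was 0.67 after the correction and 0.43 without the 2 farthest libraries, a fall that was not tested. Both phosphodiesterases, Pde5a with Pde9a, had r = -0.54 (permutation p = 0.202, adjusted p = 0.711) and rho = -0.71 (permutation p = 0.0782, adjusted p = 0.402). Their r was -0.63 without the 2 farthest libraries and -0.48 after the correction.

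**Figure D5:**
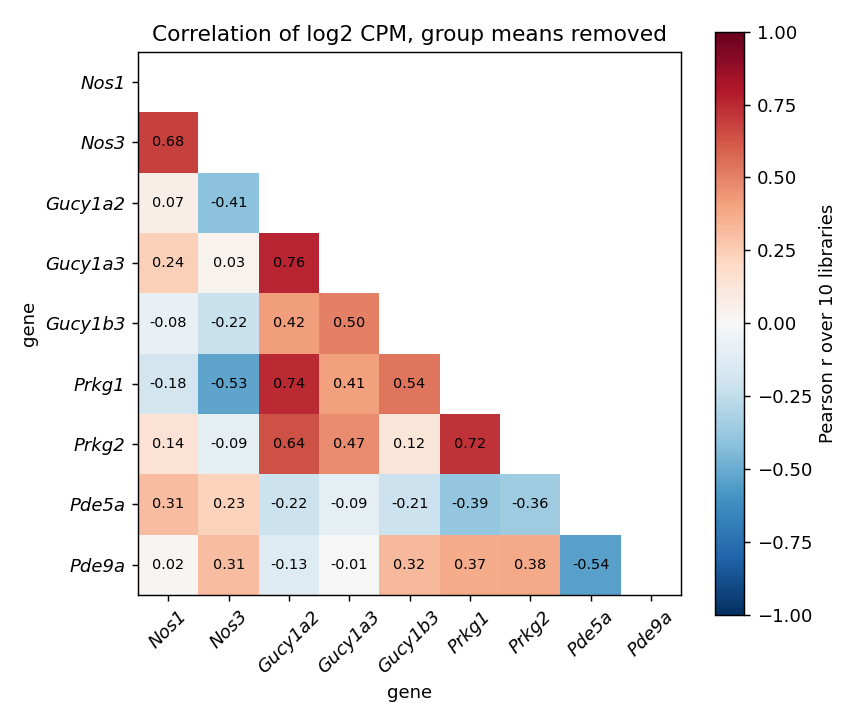
Pearson r of log2 CPM for each of the 36 pairs of genes over 10 libraries, with group means removed, from blue (negative) to red (positive). Gucy1a2, Gucy1a3, Prkg1 and Prkg2 are positive with one another, up to 0.76 for Gucy1a2 and Gucy1a3, and the lowest value is -0.54 for Pde5a and Pde9a.

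Among 13286 other tested genes, those most like Nos1 by this measure included the mitochondrial chaperonin gene Hspd1 (r = 0.94) and the secreted protein gene Cthrc1 (0.92). Those most like Nos3 were the collagen chaperone gene Serpinh1 (0.97), Arhgap23 (0.96) and Smim10l2a (0.96). Those most like Gucy1b3 were the transcription factor gene Sox2 (0.91), Pcdhb16 (0.91) and Erich1 (0.90). All genes were read in the same 10 libraries, with their depths and base composition, and these values are a description only. By comparison, Nos3 ranked 359 in likeness to Nos1, Prkg1 ranked 177 in likeness to Prkg2, and Gucy1a2 ranked 218 in likeness to Gucy1a3. In the other direction, Nos1 ranked 880 in likeness to Nos3, Prkg2 ranked 260 to Prkg1, and Gucy1a3 ranked 465 to Gucy1a2.

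The rest of the pathway was read from 5 lists of 94 genes, of which 64 were tested. In edgeR 0 of 64 passed over all genes, and 1 of 64 had an unadjusted p under 0.05, against 6.07% of all tested genes. Over the 64 genes 29 were higher and 35 lower with paclitaxel, with a median log2 fold change of -0.0083, against 49.1% higher and a median of -0.0027 over all tested genes.

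Partners of the synthases were mostly lower in value, 11 of 15 tested, with a median log2 fold change of -0.06. This list holds the scaffold Dlg4 (PSD-95), which ties Nos1 to NMDA receptors, the calmodulins that activate the enzymes, and chaperones. The gene of lowest p was Hsp90ab1, a chaperone that binds Nos3 (log2 fold change -0.12, SE 0.05, edgeR unadjusted p = 0.019, adjusted p = 0.792). It did not overlap between groups: 1442 to 1706 CPM with paclitaxel and 1722 to 1862 CPM with vehicle. Groups were free of overlap in 1 of the 64 tested genes of the lists, against 1.09% of all tested genes. Hsp90ab1 was lowest in paclitaxel replicate 3, without which its log2 fold change was -0.078. Without paclitaxel replicate 4 it was -0.13. Nos1ap, an adaptor of Nos1, held 20.6 ± 2.45 CPM (SD, n = 5) with paclitaxel against 24.0 ± 3.34 CPM (SD, n = 5) with vehicle (log2 fold change -0.22, edgeR adjusted p = 0.80). Calm3 had a log2 fold change of -0.09 (-0.016 under the GC and length correction, -0.12 without vehicle replicate 1). The median of the list was -0.016 under the GC and length correction, -0.023 without paclitaxel replicate 3 and -0.0039 without both that library and vehicle replicate 4. It was -0.084 in limma-voom and -0.083 without paclitaxel replicate 5.

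Genes that supply arginine and tetrahydrobiopterin gave 4 higher and 8 lower of 12 tested, with a median of -0.08 (-0.11 to -0.047 as single libraries were left out) and 0 at an unadjusted p under 0.05. Those of lowest p were Adh5, which removes S-nitrosoglutathione (0.14), Ddah2, which degrades an endogenous synthase inhibitor (-0.21), and Spr, sepiapterin reductase (-0.11). Ddah2 was at -0.11 without paclitaxel replicate 3 and -0.26 without paclitaxel replicate 5. Spr was at -0.07 without paclitaxel replicate 3 and -0.13 without vehicle replicate 5. Gch1, the rate-limiting enzyme of tetrahydrobiopterin synthesis, had 99 counts over all 10 libraries and was below the filter. Natriuretic peptides and the membrane-bound cyclases gave 2 higher and 4 lower of 6 tested, with a median of -0.04 (-0.06 to 0.0026 as single libraries were left out). Among them Npr2, the receptor of C-type natriuretic peptide, was at -0.06 (-0.028 without vehicle replicate 3, -0.085 without vehicle replicate 1). The protease gene Furin was at 0.05 (0.011 to 0.10 as single libraries were left out). Npr1 was at -0.09 (0.0026 without paclitaxel replicate 1, -0.18 without vehicle replicate 2). These genes had an adjusted p of at least 0.897 in edgeR.

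Other cyclic nucleotide phosphodiesterases were mostly higher in value, 12 of 16 tested, with a median of 0.06 and 0 at an unadjusted p under 0.05. Pde8a averaged 38.5 CPM with paclitaxel, against 34.4 CPM with vehicle (log2 fold change 0.16, SE 0.09; edgeR adjusted p = 0.803), Pde4a at -0.09 and Pde3b at 0.16 (0.08 without vehicle replicate 3, 0.24 without vehicle replicate 4), all 3 enzymes that hydrolyse cyclic AMP. Effectors and substrates gave 7 higher and 8 lower of 15 tested, with a median of -0.0068 (-0.04 to 0.024 as single libraries were left out). The actin regulator Vasp, a classical substrate of the kinases, averaged 16.6 CPM with paclitaxel, against 19.2 CPM with vehicle (log2 fold change -0.20, SE 0.12, edgeR adjusted p = 0.811). Its log2 fold change was -0.13 without paclitaxel replicate 3 and -0.29 without paclitaxel replicate 5. The exporter Abcc4 was at 0.22 (0.08 without vehicle replicate 5, 0.39 without vehicle replicate 2). The cyclic nucleotide-gated channel subunits were below the filter, with Cngb3 at 0 counts in all 10 libraries.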

How the data were processed

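The authors deposited unscaled expected counts, 1 value per gene and library. The submitters' processing notes name STAR, RSEM, edgeR 4.2.0 and build mm10. Other tool versions and the strand setting were not given in these sources. Before testing, the expected counts were rounded, since 5.04% of values were not whole. Replicates all differed by more than sampling noise (chi-square over its degrees of freedom 1.62 to 6.88). Counts were filtered with filterByExpr (minimum count 10, minimum total 15) in edgeR 4.0.16 (R 4.3.3), scaled with TMM factors and tested by quasi-likelihood with group as the only term and robust dispersions. P-values were adjusted over all 13287 genes by the Benjamini-Hochberg method at 0.05. CPM uses TMM-scaled library sizes, log2 CPM adds a prior count of 2, and intervals are at 95%. The fit was tested on simulated data. Transcript lengths and GC content came from GENCODE release M21, loci from RefSeq on GRCm38. Named genes were the 9, up to 3 genes of lowest p per pathway list, and the 3 genes most correlated with Nos1, Nos3 and Gucy1b3 at a mean of at least 1 CPM. Dlg4, Atg9b, Nos2, Gch1, Cngb3, Slco1a4, Esam, Klf4 and Fos were named with their values known. The genes, lists and tests were chosen with earlier results of these data known. Alternatives were other scalings, filters and tests (DESeq2 1.42.0, limma-voom 3.58.1), a replicate block, a loess correction for GC content and length, and leaving out libraries. Of the genes that the rule for named genes picks, 2 are not reported here.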

Additional observations from a re-analysis of the deposited data

Results flagged for a closer look

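Gucy1b3 in paclitaxel replicate 1, at 81.3 CPM, stood far above the other 4 paclitaxel libraries, which held 70.8 to 72.5 CPM, while vehicle libraries ran from 65.2 to 85.0 CPM. Its gap was 0.84 of the group's range, above Dixon's 95% critical value of 0.710. It was the 1 such value among 18 groups of 5 libraries, and chance gives about 1 in 20 groups.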

How the results depend on the processing

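Over 21 alternatives, the log2 fold changes of Nos1, Nos3, Gucy1a2, Gucy1a3, Prkg1 and Prkg2 kept their direction, and no gene of the 9 passed an adjusted p of 0.05 in any. The number of genes called over the whole table was 1 in DESeq2 (Klf4, lower), 1 with the replicate block (Fos, lower), and 0 in the other alternatives, including each library left out in turn (0 to 0). The block rests on replicate numbers that the labels do not tie to shared animals or days. Deviations of same-numbered libraries correlated at -0.10 to 0.14, and for 2 of the 5 numbers the library correlated best with its own number. The number at an unadjusted p under 0.05 was 508 without both paclitaxel replicate 3 and vehicle replicate 4, 515 without vehicle replicate 3 and 1299 without vehicle replicate 1, against 806 with all libraries. Signs turned for genes whose values were near 0. With sample quality weights in limma-voom, Gucy1b3 was at 0.0086 and Pde9a at 0.011. Without both paclitaxel replicate 3 and vehicle replicate 4, Pde5a was at 0.12 and Pde9a at 0.015. With each library left out, Gucy1b3 ran from -0.064 to 0.042, Pde5a from -0.21 to 0.088 and Pde9a from -0.13 to 0.033, while Nos3 ran from -0.94 to -0.47 and Prkg1 from 0.20 to 0.34. Prkg1 was at an unadjusted p of 0.0652 under the GC and length correction, and Nos3 at 0.0147 in limma-voom, with adjusted p from 0.44 to 1.00 for Prkg1 and from 0.484 to 1.00 for Nos3. The median of synthase partners moved to -0.016 with the GC and length correction and to -0.0039 without both libraries. Levels per kb moved to 2.29 for Prkg1 with its longest transcript and to 9.16 for Gucy1a2 with the RefSeq gene end. The cause of these shifts was not tested, except that the levels per kb follow from the length used. Low counts limit Pde5a, with 11 to 34 per library, and Nos3, with 12 to 106.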
